A study of Oryza sativa with 12 samples.

Results

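The enzymes described here make jasmonates or oxygenate the fatty acids from which jasmonates and related compounds are made. They were found in the annotated transcript table of a rice root study as the unigenes (clusters of assembled transcripts) whose best NR protein hit was from Oryza and whose NR or Swiss-Prot description named a lipoxygenase, an allene oxide enzyme, a 12-oxophytodienoate reductase, a jasmonic acid-amido synthetase or a jasmonate O-methyltransferase. Of 182689 unigenes, 97 met this rule, and 58 of these had a mean of at least 1 FPKM (fragments per kilobase of transcript, scaled by library size) over all libraries and were tested. They comprised 8 lipoxygenases named as chloroplastic (none tested), 39 other lipoxygenases (29 tested), 8 allene oxide synthases (6 tested), 1 allene oxide cyclase, 31 12-oxophytodienoate reductases (15 tested), 4 amido synthetases (3 tested) and 6 methyltransferases (4 tested). A unigene is not a gene, and the 58 tested members held 35 distinct NR hits. In the text a member carries its Swiss-Prot protein name with a letter that ranks it by abundance among unigenes of that name.

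Wild-type Oryza sativa roots were studied in 4 groups of 3 poly-A RNA libraries. They were left untreated, or received 0.1 mM spermidine, 100 mM NaCl, or both together, for 72 h; no time is stated for the roots left untreated. Spermidine, a polyamine, occurs naturally in plant cells. The title of the series names spermidine and resilience of roots to salt as its question. The labels number the libraries within a group but do not say whether they are separate plants, so the p-values measure the spread between libraries, which may be technical.

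Jasmonates are plant hormones of wounding and stress, made from polyunsaturated fatty acids of plastid membranes. A lipase releases the fatty acid, a 13-lipoxygenase adds oxygen, and allene oxide synthase and allene oxide cyclase turn the product into 12-oxophytodienoic acid. In the peroxisome a reductase and rounds of beta-oxidation complete jasmonic acid, which an amido synthetase couples to isoleucine to give the active hormone. 9S-lipoxygenases oxygenate the same fatty acids at another carbon, and their products are oxylipins that do not lead to jasmonic acid.

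All 12 libraries held root transcripts. The summed level of 6 Casparian strip membrane protein unigenes, markers of the endodermis, was 167 to 256 FPKM per library. Markers of shoot tissue (32 unigenes) summed to 17.6 to 35.9 FPKM in 10 libraries, 139 in spermidine library 1 and 251 in NaCl library 3. The RNA quality list, of 13 mitochondrial unigenes of which 3 were abundant enough to test, summed to 135 to 169 FPKM in the untreated libraries, 159 to 224 for spermidine, 19.5 to 33.4 for NaCl, and 79.3, 169 and 164 in spermidine+NaCl libraries 1, 2 and 3. The list was therefore low in the same libraries in which many of the members below were high, and its part in the results was not tested. Spermidine+NaCl library 1 was the highest of its group for 12 and the lowest for 6 of the 20 members that rose with NaCl. Over the 58 tested members it was the highest for 23 and the lowest for 21. Spermidine library 2 was the highest of its group for 10 of the 20 and 29 of the 58. Without spermidine+NaCl library 1, all 21 members called between spermidine+NaCl and NaCl kept their direction. Of these, 19 stayed called, while LOX4-a and OPR1-d did not (limma adjusted p = 0.0956 and 0.0648).

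Salt raised 20 of the 58 tested members and lowered 12, by limma with Benjamini-Hochberg adjustment over all unigenes tested at an adjusted p below 0.05. Among all 65836 unigenes tested, 10% rose and 12.9% fell, and among those with an Oryza hit, as all members have, 12.4% rose and 14.7% fell. The median log2 change was -0.04 over the members and -0.13 over all unigenes. Scaling by median ratios moved the median of all unigenes to -0.02 and gave 22 members higher and 7 lower. The RNA is from whole roots, in which fewer cells of a type and less RNA per cell cannot be told apart. Of the 20 rises, 13 exceeded 2 on the log2 scale, in 4 lipoxygenases, 3 allene oxide synthases and 6 reductases. LOX5-e, LOX5-f and OPR6-a, all among the 13, passed the filter on low values only through the NaCl group, so they had to differ. JMT-c and JMT-d, which were not called, also fell under the filter once a single other group was left out. Without these 5, 17 of 53 members rose and 12 fell, and 10 rises exceeded 2.

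Spermidine alone gave 0 calls among the 58 members by limma, with 5 at an unadjusted p below 0.05, against 2.55% of all unigenes and 0.294% of those with an Oryza hit called. Without untreated library 3 or spermidine+NaCl library 1 there was 1 call. The median log2 change was 0.03 over the members. Compared with NaCl alone, roots given spermidine and NaCl had 5 members higher and 16 lower, where 8.63% and 7.18% of all unigenes, and 10.5% and 8.85% of those with an Oryza hit, were called. The median over the members was 0.05, of the opposite sign to most of their calls, and 0.14 over all unigenes. The interaction sets the spermidine effect in salted roots against that in unsalted roots, as the first log2 change less the second. It was called for 18 members, 3 positive and 15 negative, beside 4.18% and 6.68% of all unigenes and 5.33% and 6.78% of those with an Oryza hit. Its median was -0.03 over the members and 0.16 over all unigenes. Median-ratio scaling gave 2 higher and 18 lower for spermidine+NaCl against NaCl and 1 positive and 15 negative interactions. Without spermidine+NaCl library 1, the counts were 6 higher and 16 lower, and 5 positive and 15 negative interactions. Without the 5 members that passed the filter through 1 group, they were 5 higher and 13 lower, and 3 positive and 12 negative interactions. Both the comparison of NaCl with untreated roots and that of spermidine+NaCl with NaCl use the same NaCl libraries, so their values are set side by side below and not counted as independent of each other.

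**Figure D1:**
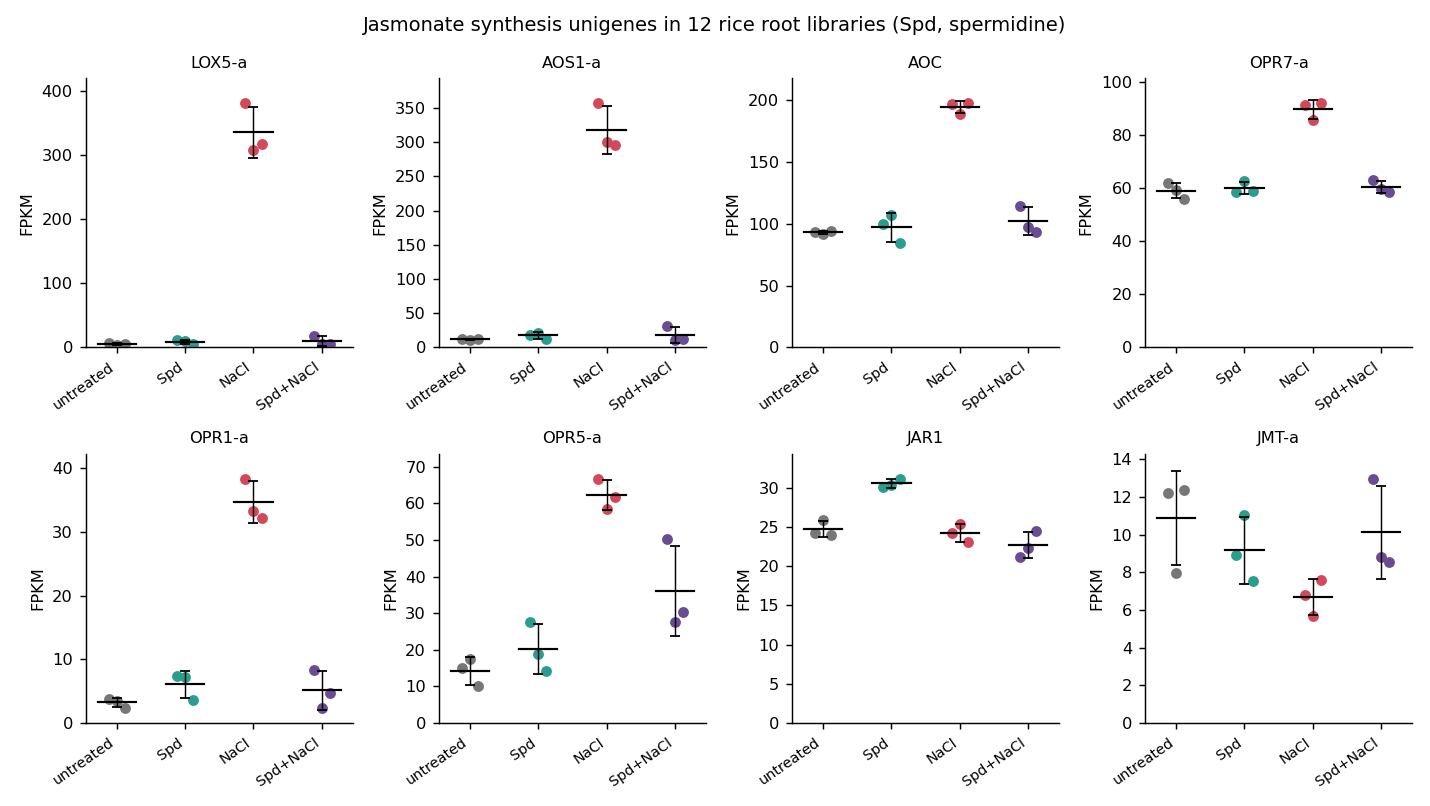
FPKM in each library of 8 members whose names match enzyme classes of the jasmonate route. Whether each acts in that route was not tested. Points are libraries, horizontal bars are group means and vertical bars are SD (n = 3), on linear axes that start at 0. LOX5-a, AOS1-a, AOC, OPR7-a, OPR1-a and OPR5-a have every NaCl library above every library of the other 3 groups, while JAR1 and JMT-a do not.

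Among lipoxygenases, the class that holds the step after fatty acid release, LOX5 changed most. The carbon that LOX5 oxygenates was not tested. LOX5-a (Cluster-52034.54647) stood at 6.15, 3.69 and 5.81 FPKM in the untreated libraries, 11.2, 10.02 and 5.43 with spermidine, 381, 308 and 317 with NaCl, and 18.0, 4.59 and 5.90 with both. Every NaCl library was far above all others, and the other 3 groups overlapped. The rise with NaCl was 5.78 ± 0.41 (log2, SE; limma adjusted p = 1.06e-05), and roots given both were lower than those given NaCl by -5.21 ± 0.41 (adjusted p = 3.31e-05), or by -5.75 without spermidine+NaCl library 1. The interaction was -5.86 ± 0.58 (adjusted p = 0.000294).

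LOX5-b showed the same ranking, with 3.82 to 6.25 FPKM untreated, 4.39 to 8.79 in the spermidine libraries, 220 to 299 in the NaCl libraries and 6.31 to 9.84 with both. It rose by 5.45 ± 0.25 with NaCl (limma adjusted p = 1.63e-06) and was lower by -4.95 ± 0.25 when spermidine was present too (adjusted p = 4.07e-06), or by -5.14 without spermidine+NaCl library 1. LOX5-e and LOX5-f lay at or below 0.85 FPKM in all 9 libraries without NaCl alone and between 6.80 and 11.4 FPKM in the NaCl libraries. The other 2 tested LOX5 unigenes, LOX5-c and LOX5-d, were not called in any comparison. LOX5-c had overlapping groups, at 0.84 to 5.77 FPKM. LOX5-d was at 3.19, 2.64 and 3.60 FPKM untreated and lower in every NaCl library, at 1.05 to 2.56 FPKM, but the change of -0.67 ± 0.23 did not pass (adjusted p = 0.0659). LOX5-a and LOX5-c share their NR hit, as do LOX5-e and LOX5-f, so reads may be divided between them. None of the 3 tested LOX6 unigenes was called with NaCl (log2 changes of -0.38 to -0.05).

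LOX5 unigenes made up 2.20% ± 0.36 (SD, n = 3) of all lipoxygenase FPKM in untreated libraries, 3.04% ± 0.83 in the spermidine libraries, 43.9% ± 2.58 in those of NaCl and 2.90% ± 1.14 in those of both. Their summed level went from 17.3 FPKM in untreated roots to 623 with NaCl, a ratio of 36.0, and was 24.5 with both. The summed level of all lipoxygenases was 791 ± 40.8, 749 ± 66.9, 1414 ± 99.8 and 846 ± 19.2 FPKM in the same order of groups. The NaCl libraries thus held a larger lipoxygenase total, in which LOX5 and LOX3 were the largest portions.

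**Figure D2:**
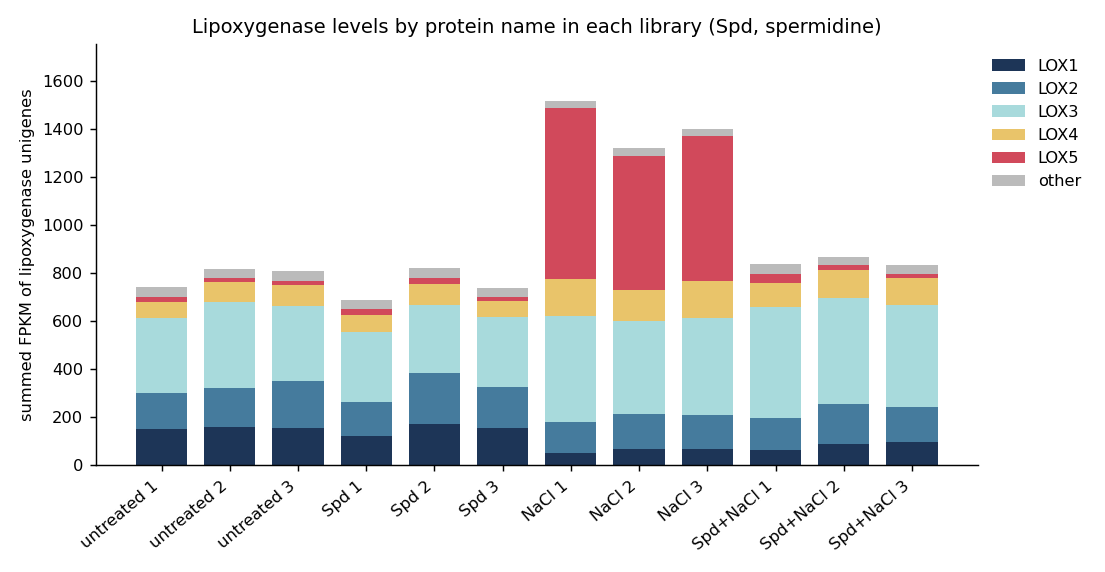
Summed FPKM of the lipoxygenase unigenes in each library, stacked by protein name, with LOX6, chloroplast and remaining lipoxygenases under other. LOX5 fills 42.0% to 46.8% of the bar in the NaCl libraries and at most 4.21% in the other 9.

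The 9S-lipoxygenases were abundant in every group and moved less, in both directions. Of 20 tested, 4 rose and 5 fell with NaCl, which is 20% and 25%, beside 12.4% and 14.7% of unigenes with an Oryza hit, and their median log2 change was -0.17. They held 95.3% ± 0.54 of lipoxygenase FPKM in untreated roots and 54.8% ± 2.48 with NaCl. The lipoxygenase total was 791 FPKM in untreated roots and 1414 with NaCl, so the lower share is not by itself a lower 9S-lipoxygenase level. The interaction was called for 0 of the 20 by limma (2 at an unadjusted p below 0.05). Among unigenes with an Oryza hit it was positive for 5.33% and negative for 6.78%, so 0 of 20 is not far from those shares. It was called for 4 of the 9 LOX5 and LOX6 unigenes, or 2 of 7 without LOX5-e and LOX5-f. All of these calls were negative and in LOX5, with none in LOX6.

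LOX1 fell with salt. LOX1-a (Cluster-52034.60404) was at 108, 106 and 106 FPKM untreated, 84.6, 118 and 112 with spermidine, 33.8, 47.4 and 44.0 with NaCl, and 45.1, 59.0 and 61.3 with both. Both salt groups were below both groups without salt, and they overlapped each other. The log2 change was -1.35 ± 0.16 with NaCl (limma adjusted p = 0.00024) and -0.91 ± 0.16 for spermidine+NaCl against spermidine (adjusted p = 0.00812), or -0.78 without spermidine+NaCl library 1. LOX1-b and LOX1-c fell by 1.37 and 0.87 with NaCl, and the LOX1-c call was lost without untreated library 2 (adjusted p = 0.0509). For spermidine+NaCl against spermidine their changes of -0.71 and -0.58 did not pass (adjusted p = 0.0816 and 0.14).

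LOX4 and part of LOX3 were higher under salt. LOX4-a was at 30.3, 27.9 and 37.5 FPKM untreated, 30.1, 33.9 and 25.4 with spermidine, 75.1, 61.8 and 78.6 with NaCl, and 49.5, 51.2 and 53.3 with both. The 4 groups gave 3 levels that did not overlap: without salt, with both, and with NaCl alone. LOX4-a rose by 1.15 ± 0.14 with NaCl (limma adjusted p = 0.000225) and by 0.77 ± 0.14 for spermidine+NaCl against spermidine (adjusted p = 0.00791). The difference between both and NaCl, -0.47 ± 0.14 (adjusted p = 0.0442), was lost on leaving out any of 7 libraries, namely untreated 1, spermidine 1, NaCl 1 or 3, or any spermidine+NaCl library (adjusted p = 0.0594 to 0.144). LOX4-b rose by 1.13 ± 0.19 with NaCl, and LOX4-c did not pass (-0.37 ± 0.17, adjusted p = 0.155).

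LOX3-a, the most abundant lipoxygenase of untreated roots, was at 137, 147 and 135 FPKM untreated, 108, 117 and 104 with spermidine, 170, 146 and 174 with NaCl, and 193, 153 and 167 with both. The spermidine libraries were the lowest and did not overlap the other groups. It was higher with spermidine+NaCl than with spermidine by 0.63 ± 0.10 (limma adjusted p = 0.00422), while the changes of 0.22 with NaCl and -0.35 with spermidine alone did not pass (adjusted p = 0.152 and 0.126). LOX3-c had the same order of groups, with 50.02 to 55.5 FPKM with spermidine and 63.4 to 68.7 untreated, and rose by 0.71 ± 0.13 for spermidine+NaCl against spermidine (adjusted p = 0.00869). LOX3-d and LOX3-e, which share their NR hit, rose in both salt comparisons. For LOX3-d the changes were 0.44 ± 0.14 with NaCl and 0.72 ± 0.14 with NaCl in the presence of spermidine, and for LOX3-e 0.87 ± 0.15 and 0.65 ± 0.15. The first LOX3-d call was lost on leaving out any of 9 libraries, all except spermidine 3 and spermidine+NaCl 2 and 3 (adjusted p = 0.0508 to 0.139). The second LOX3-e call was lost without spermidine 1 or 3 or any spermidine+NaCl library (adjusted p = 0.0539 to 0.0949). None of the 5 tested LOX2 unigenes rose, and LOX2-a, at 44.7 to 74.5 FPKM, had overlapping groups in all comparisons. The 1 LOX2 call, LOX2-d with NaCl (-0.92 ± 0.29, adjusted p = 0.0454), was lost on leaving out any of 10 libraries, all except spermidine 1 and spermidine+NaCl 1 (adjusted p = 0.0511 to 0.152). That of 9S-LOX6 (-0.44 ± 0.13, adjusted p = 0.0384) was lost on leaving out any of 9, all except untreated 2 and spermidine+NaCl 1 and 2 (adjusted p = 0.05 to 0.11).

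**Figure D3:**
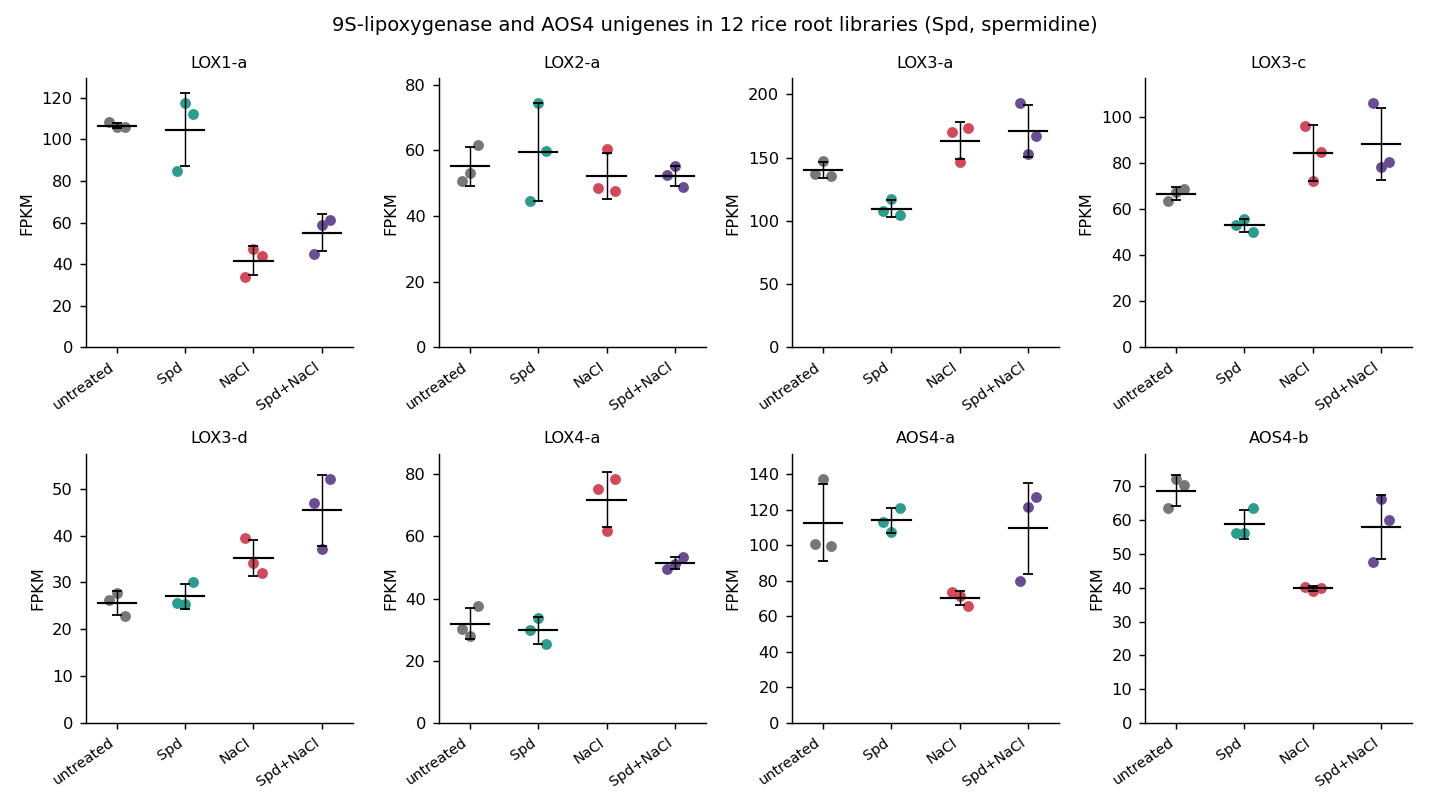
FPKM of 6 9S-lipoxygenase unigenes and 2 AOS4 unigenes in each library; points are libraries, horizontal bars are group means and vertical bars are SD (n = 3), on linear axes that start at 0. LOX1-a is low and LOX3-d high in both salt groups, while AOS4-a and AOS4-b are lowest with NaCl alone.

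The 8 lipoxygenases whose Swiss-Prot description names the chloroplast, where jasmonate synthesis starts, were scarce. None reached a mean of 1 FPKM over the libraries, and the highest group mean was 2.79 FPKM, for a unigene named after potato LOX2-1 in the spermidine group. They were not tested.

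Allene oxide synthase, which makes the unstable allene oxide, changed with salt in opposite directions by name. AOS1-a (Cluster-52034.56713) was at 12.2, 11.04 and 12.2 FPKM untreated, 18.6, 21.6 and 12.1 with spermidine, 357, 301 and 295 with NaCl, and 30.9, 11.4 and 11.6 with both. The NaCl libraries did not overlap any other, and spermidine+NaCl library 1 was above the untreated and spermidine libraries while the other 2 of its group were within their range. AOS1-a rose by 4.63 ± 0.33 with NaCl (limma adjusted p = 1.04e-05) and was lower by -4.22 ± 0.33 with both (adjusted p = 2.99e-05), or by -4.67 without that library. AOS1-b and AOS1-c rose by 4.60 and 4.02 with NaCl and were lower by -4.31 and -3.52 with both, or by -4.80 and -3.94 without it. AOS1-a and AOS1-b share their NR hit.

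AOS4 fell with NaCl. AOS4-a was at 101, 137 and 99.5 FPKM untreated, 113, 107 and 121 with spermidine, 73.5, 71.6 and 65.6 with NaCl, and 79.9, 122 and 127 with both. The NaCl libraries were the lowest, and the other groups overlapped. The change with NaCl was -0.66 ± 0.18 (limma adjusted p = 0.0213), a call lost without untreated library 2 or any of the NaCl libraries (adjusted p = 0.0503 to 0.0788). Against NaCl, roots given both were higher by 0.60 ± 0.18 (adjusted p = 0.0419), and this was lost without any of 10 libraries, all except untreated 2 and spermidine+NaCl 1 (adjusted p = 0.0526 to 0.147). Without spermidine+NaCl library 1 it was 0.81 (adjusted p = 0.00356). AOS4-b, which shares its NR hit, fell by 0.77 ± 0.11 with NaCl (adjusted p = 0.00085), from 63.5 to 72.3 FPKM untreated to 39.0 to 40.4. Its interaction was 0.74 ± 0.16 (adjusted p = 0.0161). That interaction call was lost with median-ratio scaling (0.55, adjusted p = 0.06) and with unigenes of the same NR hit summed (0.64, adjusted p = 0.0783). AOS4-c fell by 1.05 ± 0.20 with NaCl. AOS1 unigenes were 10.3% ± 1.73 (SD, n = 3) of the allene oxide synthase FPKM in untreated roots and 83.3% ± 1.45 with NaCl. With both treatments the share was 30.5% in library 1 and 9.41% and 9.48% in the other 2.

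The allene oxide cyclase (AOC), which sets the stereochemistry of 12-oxophytodienoic acid, was present as a single abundant unigene. It (Cluster-52034.57441) was at 93.2, 91.9 and 94 FPKM untreated, 99.6, 107 and 84.5 with spermidine, 197, 189 and 198 with NaCl, and 115, 97.8 and 93.3 with both. The NaCl libraries did not overlap the other groups, which overlapped one another. AOC rose by 1.06 ± 0.10 with NaCl (limma adjusted p = 4.77e-05), was lower by -0.93 ± 0.10 with both (adjusted p = 0.000179; -1.02 without spermidine+NaCl library 1), and had an interaction of -0.99 ± 0.14 (adjusted p = 0.00182). The rise, a ratio of 2.09 in mean FPKM, was smaller than that of the AOS1 sum, 26.8.

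Of the 15 tested 12-oxophytodienoate reductases, 8 (53.3%) rose and 1 (6.67%) fell with NaCl, or 7 and 1 of 14 without OPR6-a. Among unigenes with an Oryza hit, 12.4% rose and 14.7% fell. Some of the risers share an NR hit, OPR1-a with OPR1-c and OPR5-a with OPR5-b, so the counts are not counts of genes. OPR7, the rice reductase known to act on the jasmonate precursor in peroxisomes, had OPR7-a (Cluster-52034.56961) at 61.8, 59.4 and 56.1 FPKM untreated, 58.6, 62.6 and 59.0 with spermidine, 91.3, 85.6 and 92.1 with NaCl, and 63.1, 59.6 and 58.6 with both. The 9 libraries other than NaCl lay within a narrow band, and the NaCl libraries stood above it. OPR7-a rose by 0.59 ± 0.07 with NaCl (limma adjusted p = 0.000152) and was lower by -0.56 ± 0.07 with both (adjusted p = 0.000364), or by -0.59 without spermidine+NaCl library 1.

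OPR1 and its relatives started lower and rose more. OPR1-a (Cluster-52034.38430) was at 3.77, 3.53 and 2.41 FPKM untreated, 7.34, 7.29 and 3.62 with spermidine, 38.3, 33.3 and 32.2 with NaCl, and 8.28, 2.34 and 4.71 with both. The NaCl libraries were above all others, and the rest overlapped. It rose by 3.08 ± 0.35 with NaCl (limma adjusted p = 0.000147) and was lower by -2.66 ± 0.35 with both (adjusted p = 0.000614), or by -3.02 without spermidine+NaCl library 1. OPR1-b and OPR1-c rose by 2.61 and 2.44 with NaCl, and OPR1-c was lower by -1.74 with both, or by -2.04 without that library. OPR1-d, under the same Swiss-Prot name, did not pass with NaCl (-0.25 ± 0.12, adjusted p = 0.166).

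OPR1-b was the member nearest to a call with spermidine alone. It was at 2.05, 2.31 and 4.84 FPKM untreated and 7.71, 6.81 and 8.45 with spermidine, and these groups did not overlap. The change was 1.15 ± 0.29 (limma adjusted p = 0.0801), and it passed without untreated library 3 (1.44, adjusted p = 0.0221) or without spermidine+NaCl library 1 (adjusted p = 0.0428). Under NaCl, spermidine went with a lower level, -2.18 ± 0.29, or -1.89 without spermidine+NaCl library 1, and the interaction was -3.33 ± 0.41 (adjusted p = 0.000882).

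OPR5-a had an intermediate level with both treatments. It was at 15.0, 17.6 and 10.1 FPKM untreated, 27.6, 18.7 and 14.2 with spermidine, 66.8, 58.6 and 61.8 with NaCl, and 50.3, 27.5 and 30.4 with both. The libraries with both lay between the untreated and the NaCl libraries without overlapping either, but library 2 was just below the highest spermidine library. OPR5-a rose by 2.09 ± 0.28 with NaCl (limma adjusted p = 0.000448). Against untreated roots, those given both were higher by 1.27 ± 0.28 (adjusted p = 0.0293), a call lost without untreated 1 or 3 or any spermidine+NaCl library (adjusted p = 0.0558 to 0.0898). The difference between both and NaCl, -0.82 ± 0.28, and the interaction, -1.28 ± 0.40, did not pass (adjusted p = 0.0759 and 0.0683). OPR5-b, with the same NR hit, rose by 2.21 ± 0.22 with NaCl and was lower by -1.37 ± 0.22 with both (adjusted p = 0.00228), or by -1.39 without spermidine+NaCl library 1. For spermidine+NaCl against spermidine, the changes of 0.81 ± 0.28 for OPR5-a and 0.74 ± 0.22 for OPR5-b did not pass (adjusted p = 0.128 and 0.0784).

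OPR6-a was between 0 and 0.54 FPKM without salt, at 6.85, 5.64 and 8.26 FPKM with NaCl, and listed at 0 in all 3 libraries given both. OPR2 rose by 0.73 ± 0.18 with NaCl (limma adjusted p = 0.0157), a call lost without untreated 3 or NaCl 1 or 2 (adjusted p = 0.0526 to 0.0616). The fall of OPR13-a, -0.36 ± 0.11 with NaCl (adjusted p = 0.0335), was lost without untreated 1 or 3 or NaCl 2 (adjusted p = 0.0508 to 0.106). The OPR8, OPR9 and OPR11 unigenes were not called in any comparison. In the RefSeq gene table (assembly ASM3414082v1) 9 of the 13 OPR names sought were matched, and OPR1 to OPR6 lay within a run of 8 consecutive genes, of which 6 carried an OPR name, while OPR7, OPR8 and OPR12 lay elsewhere. The reductases that rose by more than 2 on the log2 scale, OPR1-a to OPR1-c, OPR5-a, OPR5-b and OPR6-a, all carried names from that run. The unigenes were not placed on a genome, and reads may be divided between these similar genes.

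The amido synthetases, which form the active hormone, did not rise with NaCl. JAR1 (Cluster-52034.75793) was at 24.3, 25.9 and 24.0 FPKM untreated, 30.1, 30.4 and 31.2 with spermidine, 24.2, 25.3 and 23.1 with NaCl, and 21.2, 22.3 and 24.5 with both. The spermidine libraries were above all others. The change with NaCl was -0.03 ± 0.08 (limma adjusted p = 0.862) and that with spermidine 0.29 ± 0.08 (adjusted p = 0.0939). Roots given both were lower than those given spermidine by -0.42 ± 0.08 (adjusted p = 0.00962). The interaction, -0.39 ± 0.11 (adjusted p = 0.0482), was lost without any of 10 libraries, all except untreated 2 and spermidine+NaCl 3 (adjusted p = 0.0532 to 0.0844).

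JAR2-a and a unigene with the Swiss-Prot name GH3.12 were lowest in the NaCl libraries, as were AOS4-a and AOS4-b. The GH3.12 unigene was at 22.0, 23.0 and 21.0 FPKM untreated, 21.0, 20.7 and 21.6 with spermidine, 17.1, 14.8 and 14.2 with NaCl, and 27.5, 24.9 and 20.8 with both. The NaCl libraries were below all others. It fell by 0.50 ± 0.11 with NaCl (limma adjusted p = 0.00811), a call lost with median-ratio scaling (-0.36, adjusted p = 0.0567), and was higher with both than with NaCl by 0.63 ± 0.11 (adjusted p = 0.00338), or by 0.54 without spermidine+NaCl library 1 (adjusted p = 0.00822). JAR2-a fell by 0.83 ± 0.13 with NaCl and was higher by 0.84 ± 0.13 with both (adjusted p = 0.00111 and 0.00157), at 2.05 to 2.55 FPKM in the NaCl libraries and 4.09 to 5.49 in the others.

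The jasmonate O-methyltransferases, named for the enzyme that makes the volatile methyl ester, were lowly expressed. JMT-a, the most abundant, was at 12.2, 7.99 and 12.4 FPKM untreated, 8.94, 11.1 and 7.52 with spermidine, 6.80, 5.70 and 7.57 with NaCl, and 12.98, 8.84 and 8.56 with both. The NaCl libraries were the lowest except that the lowest spermidine library lay within their range, and no comparison was called (-0.61 ± 0.21 with NaCl, limma adjusted p = 0.0619). The NR hits of JMT-a and JMT-c are described as a salicylate carboxymethyltransferase, a related enzyme, so their substrate is uncertain. JMT-b fell by 0.67 ± 0.13 with NaCl and by 0.70 ± 0.13 for spermidine+NaCl against spermidine (adjusted p = 0.00521 and 0.0113).

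With spermidine present, salt changed fewer members than without it. For spermidine+NaCl against spermidine, 5 of the 58 members (8.62%) rose and 3 (5.17%) fell. Of all unigenes 2.6% rose and 4.33% fell, and of those with an Oryza hit 3.35% and 1.94%. The largest size of a called change among the members was 0.91 on the log2 scale. None of the 13 members that rose by more than 2 with NaCl alone was called there. The interaction was called for 12 of the 13, all except OPR5-a, or for 9 of 10 without LOX5-e, LOX5-f and OPR6-a, which passed the filter only through the NaCl group. The interaction subtracts the same NaCl change by which the 13 were chosen, in the same libraries. The choice therefore favoured negative interactions, and these interaction counts are no separate support. The comparison of spermidine+NaCl with spermidine and that of NaCl with untreated roots share no library. They had 5 called members in common, which are 15.6% of the 32 called with NaCl alone and 62.5% of the 8 called in the presence of spermidine, and all 5 changed in the same direction. These were LOX1-a, LOX3-d, LOX3-e, LOX4-a and JMT-b. Of them, 4 are 9S-lipoxygenases, as are 20 of the 58 tested members. LOX3-d and LOX3-e share their NR hit, so the 4 may not be 4 genes. With 32 of the 58 tested members called with NaCl alone, a large share of the 8 would be in common without any link. Over all unigenes tested the overlap was 1622, or 10.8% and 35.6% of the respective lists, and over those with an Oryza hit 1233, or 11% and 56.2%, of which 1186 changed in the same direction.

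**Figure D4:**
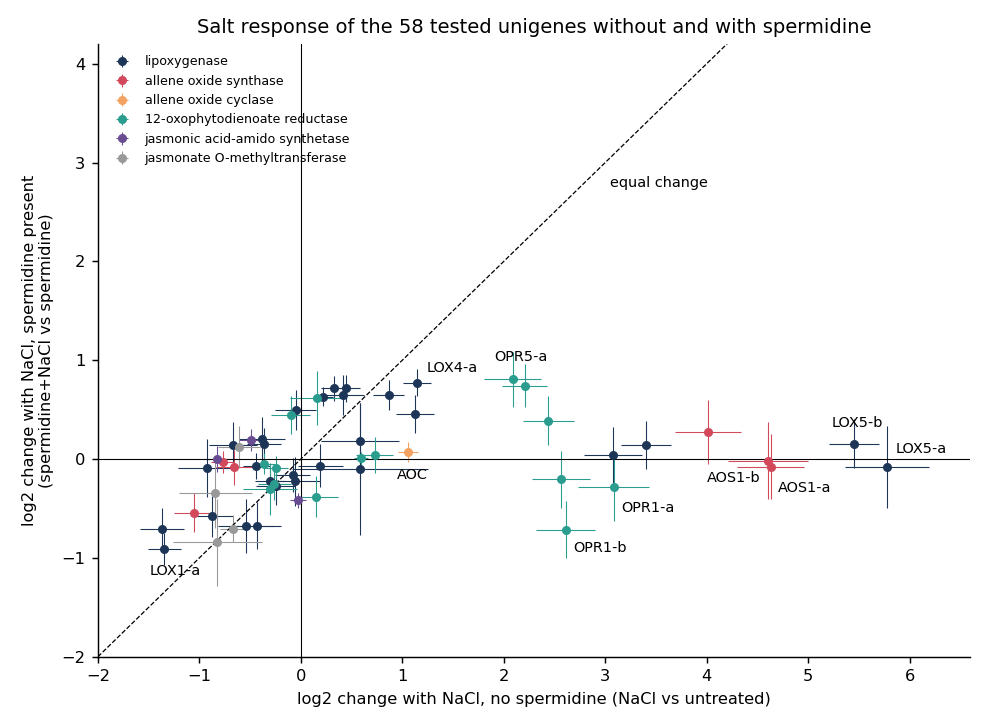
Log2 change with NaCl without spermidine (horizontal axis) and in the presence of spermidine (vertical axis) for the 58 tested members, with SE bars and the line of equal change dashed. The members that rose most with NaCl alone, LOX5-a and LOX5-b at 5.78 and 5.45, lie at -0.08 and 0.16 on the vertical axis, while LOX1-a and LOX4-a lie near the dashed line.

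Roots given both treatments differed from untreated roots in 4 members, 3 higher and 1 lower, when 2.38% and 2.99% of all unigenes, and 2.64% and 1.9% of those with an Oryza hit, were called. Median-ratio scaling, and likewise rice-hit unigenes rescaled alone, gave 3 higher and 2 lower. Without untreated library 1 or spermidine+NaCl library 2, 2 members were called. LOX1-a was lower by -0.95 ± 0.16 (limma adjusted p = 0.0108). LOX3-d was higher by 0.79 ± 0.14 (adjusted p = 0.0111) and LOX4-a by 0.68 ± 0.14 (adjusted p = 0.0207), the latter lost without untreated 1 or 2 or spermidine+NaCl 2 or 3 (adjusted p = 0.0646 to 0.0788). The fourth was OPR5-a, described above. The comparison shares libraries with each of those above.

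The 39 members below the level for testing had a highest group mean of 3.15 FPKM, for OPR6-b with NaCl. Every NaCl library was above every untreated library for 7 of the 39 and below for 1. Among all unigenes under that level, 5.53% lay above and 7.66% below, and among those with an Oryza hit 8.41% and 8.73%. Among the 7, OPR6-b went from a listed 0 to 3.15 FPKM and OPR7-b from 0.21 to 2.74 FPKM.

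Lists of other genes of the route, drawn up by description, were counted in the same way. Their shares are to be read beside those of all unigenes with an Oryza hit, of which 12.4% rose and 14.7% fell with NaCl and 10.5% were higher and 8.85% lower with both than with NaCl. Of 34 tested fatty acid release unigenes, 4 (11.8%) were higher and 2 (5.88%) lower with both than with NaCl. With NaCl against untreated roots, 4 (11.8%) rose and 5 (14.7%) fell (median log2 change -0.34, against -0.13 over all unigenes). The most abundant of the rising ones, phospholipase A1-Ibeta2, a chloroplast lipase, was at 73.3, 80.7 and 63.0 FPKM untreated, 122, 148 and 72.0 with spermidine, 708, 519 and 569 with NaCl, and 202, 60.1 and 85.5 with both. The NaCl libraries did not overlap the rest. It rose by 3.03 ± 0.39 with NaCl (limma adjusted p = 0.000364) and was lower by -2.54 ± 0.39 with both (adjusted p = 0.00176), or by -3.03 without spermidine+NaCl library 1. A unigene named DAD1, after an Arabidopsis lipase that supplies jasmonate synthesis in flowers, fell by 0.71 ± 0.14 with NaCl, from 21.2 to 12.6 FPKM on average, but not when unigenes with the same NR hit were summed (-0.07, adjusted p = 0.557).

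Of 38 tested beta-oxidation unigenes, 6 (15.8%) rose and 10 (26.3%) fell with NaCl (median -0.11). With both against NaCl, 6 (15.8%) were higher and 5 (13.2%) lower. Acyl-CoA oxidase 4, of the enzymes that open each round, fell by 0.60 ± 0.05 with NaCl (limma adjusted p = 3.73e-05), from 311 to 316 FPKM untreated to 197 to 217, and was also lower with both than untreated, by -0.41 ± 0.05 (adjusted p = 0.00411). The most abundant riser, at 104 to 128 FPKM untreated and 252 to 343 with NaCl, was described as an oxalate-CoA ligase, which is not an enzyme of jasmonate beta-oxidation.

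The perception and repression list, the turnover list and the MYC factors had more rises than falls with NaCl. The first pools receptor descriptions with those of repressors. In perception and repression, 22 of 54 (40.7%) rose and 6 (11.1%) fell (median 0.18). In roots given both against NaCl, 6 (11.1%) were higher and 22 (40.7%) lower. TIFY 11e, of the family of jasmonate response repressors, was at 2.97 to 2.99 FPKM untreated and 1145 to 1323 with NaCl, and at 90.7, a listed 0 and 12.6 with both. Its rise with NaCl was 8.25 ± 1.61 (limma adjusted p = 0.00429). COI1b, named for the jasmonate receptor, fell by 0.46 ± 0.08 with NaCl (adjusted p = 0.00271), from 44.2 to 46.03 FPKM untreated to 30.7 to 34.5.

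Of the 7 tested MYC factor unigenes, which act in jasmonate-responsive transcription, 4 (57.1%) rose with NaCl and 0 fell (median 1.64). With both against NaCl, 2 (28.6%) were higher and 4 (57.1%) lower. MYC2 was at 45.6, 38.6 and 24.0 FPKM untreated, 47.3, 54.9 and 92.0 with spermidine, 116, 201 and 145 with NaCl, and 36.2, 44.0 and 79.2 with both. The NaCl libraries were the highest and did not overlap the others. It rose by 2.07 ± 0.36 with NaCl (limma adjusted p = 0.00207). In the turnover list, 18 of 42 (42.9%) rose and 6 (14.3%) fell with NaCl (median 0.39), and 3 (7.14%) were higher and 14 (33.3%) lower with both than with NaCl. CYP94C1, which oxidises the active hormone, was at 3.58 to 4.72 FPKM untreated, 3.65 to 11.6 in the spermidine libraries, 455 to 553 in the NaCl libraries and 3.84 to 17.4 with both, and rose by 6.64 ± 0.48 with NaCl (adjusted p = 1.1e-05). The list's most abundant faller, with a fall of 0.35 ± 0.08, has the Swiss-Prot name IAA-amino acid hydrolase ILR1-like 7 but an NR hit of another protein, so its identity is uncertain.

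Of the 7 tested unigenes for other oxylipins, 4 (57.1%) rose with NaCl and 0 fell (median 0.86). With both against NaCl, 1 (14.3%) was higher and 2 (28.6%) were lower. Against untreated roots, 4 (57.1%) were higher with both and 0 lower. Peroxygenase 4, of enzymes that use fatty acid hydroperoxides, was at 19.2 to 25.4 FPKM untreated, 26.5 to 28.4 in the spermidine libraries, 36.7 to 44.7 in the NaCl libraries and 31.4 to 32.6 with both, so that the 4 groups did not overlap. It rose by 0.86 ± 0.11 with NaCl (limma adjusted p = 0.000273).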

How the data were processed

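FPKM were measured per unigene in 12 libraries. The authors deposited these FPKM in a single table with protein hits for each unigene, and the tools named, per the submitters' processing notes, are Bowtie2, CASAVA 1.8 and RSEM, with roles not given in the sources used here. FPKM keep no read counts, so the depth is unknown and counting intervals could not be had; the values summed to 1312574 to 1371599 per library, and relative depth from low values was 0.931 to 1.08.

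log2(FPKM + 1), on which the change of low unigenes is understated, was fitted with limma 3.58.1 (R 4.3.3, variance trend) as 4 group means over all libraries, for the 65836 unigenes that averaged 1 FPKM or more. Tests were two-sided, in 6 comparisons. Errors are SD for means and SE for log2 changes. The steps were tested on simulated data.

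In each class the naming rule took called members with a group mean of at least 10 FPKM, at most 6, and the most abundant one of a class without calls; from each list it took the most abundant called unigene in each direction with NaCl. Other members were named after their values were seen. Members and lists were chosen with earlier results of these data known. Alternatives were another pseudocount, filters, scalings, summing by NR hit, narrower fits, a replicate block and leaving out each library. Counts without members that passed the filter through 1 group were added after seeing the data. Gene names and neighbours were matched to RefSeq; sequences were not used here.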

Additional observations from a re-analysis of the deposited data

Results flagged for a closer look

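Among the members named by the rule, 13 had a change with spermidine that differed between roots with and without NaCl, by the limma interaction at an adjusted p below 0.05. The rule names members called in any comparison, the interaction included, so 13 is not a rate. Among all unigenes tested, 4.18% had a positive and 6.68% a negative interaction. On the log2 scale the differences were -5.86 for LOX5-a and -5.29 for LOX5-b, -4.71, -4.62 and -3.74 for AOS1-a, AOS1-b and AOS1-c, -0.99 for AOC, -0.58 for OPR7-a, -3.37, -3.33 and -2.05 for OPR1-a, OPR1-b and OPR1-c, and -0.39 for JAR1. The JAR1 call was lost without any of 10 libraries, as given above. For AOS4-b and the GH3.12 unigene they were positive, 0.74 and 0.69. Both of these calls were lost with median-ratio scaling (limma adjusted p = 0.06 and 0.103). That of AOS4-b was also lost with unigenes of the same NR hit summed (adjusted p = 0.0783).

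Outside the members were 15 unigenes with the same enzyme words but a best hit outside Oryza or none. Of these, 3 low ones with a best hit in another cereal were listed at 0 in every untreated library and above 0 in every NaCl library. A lipoxygenase 2.3 unigene with a Triticum urartu hit averaged 0.593 FPKM with NaCl. A unigene with a Hordeum vulgare hit averaged 0.823 FPKM with NaCl. Another with a Hordeum vulgare hit averaged 0.973 FPKM with NaCl and 1.84 FPKM with both treatments, the latter mostly from spermidine+NaCl library 2, at 4.86 FPKM. Another 3 of the 15 went the other way, with every NaCl library below every untreated one. A 9S-lipoxygenase 6-like unigene with a Hevea brasiliensis hit was at 0.16, 0.30 and 0.04 FPKM untreated and listed at 0 in every NaCl library. A further unigene with a Hordeum vulgare hit was at 3.10, 0.30 and 1.09 FPKM untreated and 0.06 to 0.24 FPKM with NaCl. The third, a LOX2 unigene with no NR hit, is described under the other observations. Apart from that unigene, those described here were under the level for testing. Among all unigenes under that level, 5.53% had every NaCl library above every untreated one and 7.66% below. The counts are small, and no result is drawn from them.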

How the results depend on the processing

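Over 21 alternatives, 112 called changes of named and other members and list genes kept their direction throughout, and 76 of them stayed past the threshold under every alternative that could be run. With median-ratio scaling 16 of the 112 calls were lost, and 24 of 88 with a fit of only the groups compared, which has fewer libraries. The number of members called without 1 library ranged from 27 to 34 for NaCl against untreated, 0 to 1 for spermidine alone, 18 to 22 for spermidine+NaCl against NaCl, 2 to 5 for spermidine+NaCl against untreated, 7 to 9 against spermidine, and 17 to 20 for the interaction. Spermidine alone gave 1 call, OPR1-b, without untreated library 3, without spermidine+NaCl library 1, and with the replicate number as a block (adjusted p = 0.0457). With only the groups compared, 1 member was called for spermidine+NaCl against untreated and 2 against spermidine. Whether the replicate numbers pair the libraries could not be settled. After removing group means, same-numbered libraries correlated at -0.11 to 0.15, and 2 of 18 correlations were over 0.1. Libraries of different numbers correlated at -0.1 to 0.098, with 0 of 36 over 0.1. Spermidine+NaCl library 1 correlated at 0.147, 0.104 and 0.077 with library 1 of the untreated, spermidine and NaCl groups. The replicate block gave 32, 1, 23, 6, 8 and 18 calls in the order of comparisons above. With unigenes of the same NR hit summed, 23 of 36 sums were called with NaCl, beside 11498 of 48942 over all sums tested.

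The unknown depth, 3 libraries per group, untimed untreated roots and the division of reads between similar unigenes limit what these values show. The RNA quality list moved with the NaCl group, and its effect was not tested.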

Other observations

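A unigene with a Swiss-Prot hit to a 9S-lipoxygenase, LOX2, and no NR hit fell outside the rule for members. It was at 79.8, 128 and 101 FPKM untreated, 86.3, 96.2 and 68.8 with spermidine, 57.1, 54.3 and 66.7 with NaCl, and 78.2, 68.3 and 100.0 with both. The NaCl libraries were the lowest and did not overlap the others. It fell by 0.76 ± 0.20 with NaCl (limma adjusted p = 0.0179), in a name under which 1 of 5 tested members fell, and was chosen after its values were seen.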
